A study of Rattus norvegicus with 372 samples.

Results

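Primary rat hepatocytes treated with caffeine at 10000 µM, the high concentration, were compared with hepatocytes that received vehicle. The members are all WT libraries whose labels give caffeine as the chemical and 10000 µM as the concentration. There were 6 of them, 3 wells in each of 2 batches, among the 186 WT libraries and the 372 libraries of both assays. They were set against the 9 WT libraries of vehicle wells, 3 in batch 1 and 6 in batch 2.

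The hepatocytes were freshly isolated from male Wistar rats, kept in collagen sandwich, which holds cells between layers of collagen, and exposed for 24 h. All groups received medium with insulin, dexamethasone, a synthetic glucocorticoid, epidermal growth factor (EGF) and 0.5% DMSO, and vehicle wells received this DMSO without a chemical. Each batch used hepatocytes of a different rat, and libraries of the batches were prepared and sequenced apart, so rat and batch cannot be told apart. Wells of the same rat and treatment, 3 for caffeine, are technical replicates, and tests within a batch measure the spread between wells of 1 rat. In batch 1 all caffeine and vehicle wells were on plate 4. In batch 2 the caffeine wells were on plate 2, as were 3 of the vehicle wells, while the other vehicle wells were on plate 3. In the TempO-Seq assay a pair of detector oligos is ligated on its transcript, amplified and sequenced, and each read counts for the pair that was joined. The WT assay covers the whole transcriptome, and the ST assay of the same lysates covers a surrogate set of genes.

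Caffeine is a methylxanthine that blocks adenosine receptors. At high concentrations it also inhibits phosphodiesterases, the enzymes that degrade cyclic AMP, and releases calcium from intracellular stores through ryanodine receptors. In hepatocytes cyclic AMP is the messenger of glucagon: it activates the transcription factor CREB and raises the genes of gluconeogenesis, whereas insulin lowers them through the FoxO factors. Caffeine is metabolised in the liver in part by CYP1A2, whose gene is a target of the aryl hydrocarbon receptor (AhR).

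The caffeine wells held 5194574 to 5739526 reads in batch 1 and 7625010 to 7880275 in batch 2, and the vehicle wells held 5492941 to 8264980 and 5788931 to 7199877. A caffeine well of batch 2 (well 1, F02) stood apart from its sister wells. In it 30 genes of at least 2 CPM were at least 4-fold above both of them, against 0 and 1 gene in the sister wells, and 6 of these 30 genes were on the list of interferon stimulated genes. Well 1 of the caffeine wells of batch 1 had 6 such genes, 4 of them on that list, and well 2 of the vehicle wells of batch 1 had 3, all on the list. Interferon genes, Cxcl10 and other named genes whose call was lost, or whose fold change moved by over 1.5 times, without well 1 of batch 2 are therefore also given without it.

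Caffeine at 10000 µM changed a large share of the transcriptome in both rats. Of 10191 genes tested, 5272 were called in batch 1 (51.7%) and 6281 in batch 2 (61.6%), where called means a Benjamini-Hochberg adjusted p under 0.05 in edgeR's quasi-likelihood test. Batch 1 had 2697 calls higher (26.5%) and 2575 lower (25.3%), and batch 2 had 3388 (33.2%) and 2893 (28.4%). In both rats, 2213 genes were called higher (21.7%) and 2088 lower (20.5%), which makes 4301 (42.2%), and 58 genes were called with opposite signs (0.569%). In the following, "rose" and "fell" are used of genes called in both rats in the same direction. The log2 fold change (L2FC) of each gene comes from the fit of both batches and is given ± SE. In that fit every well counts as a replicate, so its SEs and p-values do not take the rat as the unit. Among the genes that rose, 979 had an L2FC of at least 1 and 27 of at least 5, and among those that fell, 1294 were at -1 or below and 30 at -5 or below. The wells of caffeine and vehicle did not overlap in either batch, in the same direction, for 4016 genes (39.4%), 2027 higher (19.9%) and 1989 lower (19.5%). In batch 1 alone they did not overlap for 57.7% of genes and in batch 2 for 51.1%. Across all genes tested, Pearson's r between the L2FC of the rats was 0.870. This r is across genes, which are not independent replicates, and is given with no test. The median L2FC over all genes tested was 0.05.

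**Figure D1:**
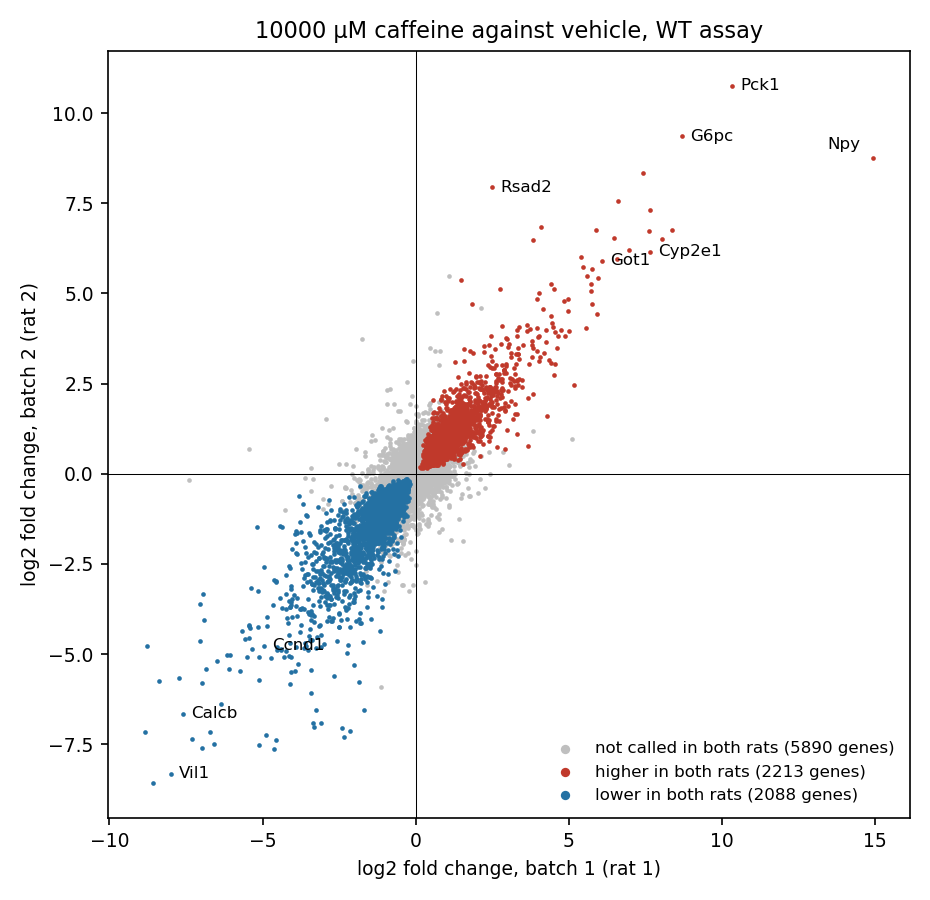
L2FC of 10000 µM caffeine against vehicle in batch 1 (horizontal axis) and batch 2 (vertical axis), 1 point per gene tested. Red points are the 2213 genes that rose in both rats, blue points the 2088 that fell and grey points all others. Most called genes lie near the diagonal, while Npy, with 0 reads in the vehicle wells of batch 1, and Rsad2 lie off it.

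In the fit of both batches, the gene with the largest rise was Pck1, which encodes cytosolic phosphoenolpyruvate carboxykinase, the enzyme that commits carbon to gluconeogenesis. Its level in CPM (reads of the gene scaled to a common library size by TMM normalisation) was 4910, 5658 and 6441 in the caffeine wells of batch 1, against 3.84, 6.21 and 3.20 in the vehicle wells. In batch 2 the caffeine wells held 5365, 7465 and 8523 CPM, and the 6 vehicle wells held 2.67 to 5.95 (median 3.68). The groups were far apart in both rats, with an L2FC of 10.59 ± 0.26, a 1541-fold rise (adjusted p = 1.1e-83). G6pc, the catalytic subunit of glucose-6-phosphatase, which releases glucose from the cell, was at 153, 198 and 210.3 CPM with caffeine in batch 1 and at 0.698, 0.172 and 0.320 with vehicle. Its caffeine wells of batch 2 were at 273, 381 and 437 CPM, against 0.275 to 0.851 (median 0.513) with vehicle. No well of the groups overlapped, and L2FC was 9.02 ± 0.32.

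Pdk4, a kinase that inhibits pyruvate dehydrogenase and so spares glucose carbon, had 25.9, 37.5 and 21.9 CPM in the caffeine wells of batch 1 and 0.116, 0 and 0.320 in the vehicle wells. Batch 2 had 78.2, 58.7 and 46.9 CPM against at most 0.291. All 6 caffeine wells lay above all 9 vehicle wells, with an L2FC of 7.99 ± 0.35. Neuropeptide Y (Npy) was at 676, 520.0 and 691 CPM with caffeine in batch 1, where the 3 vehicle wells had 0 reads. Taking 3 reads over these vehicle wells as the floor, Npy was at least 4316-fold higher there. In batch 2, where the vehicle wells were at 0.872 to 2.37 CPM, L2FC was 8.76.

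The other members of the 10 largest rises had vehicle levels under 12 CPM. Ppp1r3g, a subunit that directs protein phosphatase 1 to glycogen, had an L2FC of 7.32 ± 0.28. Slc13a5, the citrate transporter of the plasma membrane, reached 7.21 ± 0.34, and Slc1a2, a glutamate transporter, 7.16 ± 0.34. Unc5d, a netrin receptor, was at 7.12 ± 0.33. Cyp4a1, a fatty acid omega-hydroxylase, rose by 7.08 ± 0.38, and Cyp2e1, a cytochrome P450 of small solvents and ketones, by 6.83 ± 0.30. In each of these genes every caffeine well lay above every vehicle well of its batch.

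The largest falls included genes that were left with few or no reads. Hs3st2, a heparan sulfate sulfotransferase, had 9.77, 6.21 and 6.71 CPM in the vehicle wells of batch 1 and 4.85 to 8.23 in those of batch 2, and 0 reads in all 6 caffeine wells. With a floor of 3 reads over a group, it was at least 39.1-fold lower in batch 1 and at least 49.4-fold lower in batch 2. Vil1, which encodes the microvillar actin bundling protein villin, had 1 read over the 3 caffeine wells of each batch, against 462 and 810 over the vehicle wells. The ratio was 334-fold lower in batch 1 (95% exact counting interval 59.7 to 13238) and 442-fold lower in batch 2 (79.0 to 17463). Vsig4, a complement receptor of Kupffer cells, the resident macrophages of the liver, had 0 reads in every caffeine well and 1.39 to 3.63 CPM in the vehicle wells, at least 15.7- and 21.3-fold lower. In lysates of whole wells, fewer cells of a type and less RNA per cell cannot be told apart. Nat8f3, an N-acetyltransferase, and Ank1, the membrane skeleton protein ankyrin, also had no reads with caffeine and were at least 12.3- and 9.41-fold lower in batch 1.

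Calcb, a calcitonin gene-related peptide, fell from 22.6 to 36.2 CPM in batch 1 and 18.9 to 33.3 in batch 2 to at most 0.507 in any caffeine well, with an L2FC of -7.04, or -7.85 without well 1 of batch 2. Cxcl3, a neutrophil chemokine, had 1 read over the caffeine wells of each batch. Calml4, a calmodulin-like protein, had an L2FC of -6.36 ± 0.40. Krt20, an epithelial keratin, and Ms4a18 had 0 reads with caffeine in batch 1, at least 32.8- and 46.3-fold lower. The vehicle wells of these 10 genes had 39 to 999 reads per batch, and none of their caffeine wells reached the vehicle range.

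Beside the counts of each list that follows stand the 21.7% of all genes tested that rose in both rats and the 20.5% that fell. Genes of the cyclic AMP and CREB list rose as far as they were called. Of 8 genes tested, 6 rose and 0 fell, with a median L2FC of 1.96. The same counts, 6 and 0, were found by DESeq2, which called 20.5% of all genes higher and 21.6% lower in both rats. An unadjusted p under 0.05 in both rats, which cannot lower these counts, added no gene. Of all genes, 23.5% passed it as higher and 22.0% as lower. Besides Pck1 and G6pc these were Tat, tyrosine aminotransferase, the nuclear receptor Nr4a2, the CREB family member Crem and the CREB coactivator kinase Sik1. Tat was at 249, 353 and 309 CPM with caffeine in batch 1 and at 32.8, 38.3 and 34.4 with vehicle, and L2FC was 3.23 ± 0.14. Crem had 363 to 411 CPM with caffeine in batch 1 and 355 to 489.6 in batch 2, above all vehicle wells (120.0 to 144), with an L2FC of 1.62 ± 0.10. Nr4a2 and Sik1 rose by 2.29 ± 0.29 and 1.27 ± 0.21. The immediate early gene Fos (0.40) and the phosphodiesterase Pde4b (-0.39) did not pass the test in both rats. Ppargc1a, the coactivator of gluconeogenic genes, was too low for the test over all wells, but it stood at 4.71 to 8.21 CPM in the caffeine wells and 0.480 to 1.24 in the vehicle wells. Nr4a1 was also below the filter on mean counts, with at most 0.567 CPM in any of these wells.

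Promoters of 4 genes from the cyclic AMP and AhR lists are shown here, since these lists are named for factors that bind DNA. The plan was to show up to 3 called genes of each list with the largest absolute L2FC. The genes shown depart from it: Crem, ranked 5 on its list, is shown, while Tat and Cyp1a2, each ranked 3, are not. Aldh3a1, ranked 1 on the AhR list, had no promoter entry. The sequences are those of RefSeq for the rat assembly GRCr8, 300 bases around the gene's start, 5′ to 3′ on the gene's strand. Capitals mark TGACG, the core of the cyclic AMP response element, or GCGTG, the core of the xenobiotic response element that AhR binds, on either strand. The Pck1 promoter (chr3:182348322-182348621, plus strand) held TGACG on the opposite strand, read as CGTCA, 90 bases before the start. The G6pc promoter (chr10:86807409-86807708, plus strand, listed as G6pc1) held neither core. Of 3 promoters listed for Crem, 1 is shown (chr17:58985240-58985539, plus strand), chosen after its letters were seen. It held the full palindrome TGACGTCA, which contains TGACG on both strands, 35 bases before and 39 bases after the start, beside a GCGTG. Another Crem promoter held the palindrome 56 bases before its start, and the remaining one held TGACG without it. The Cyp1b1 promoter (chr6:21094315-21094614, plus strand) held GCGTG on the opposite strand 81 bases before the start and on the gene's strand 20 bases before it. Of the promoters not shown, those of Tat and Cyp1a2 held none of these motifs, those of Nr4a2 and Sik1 held TGACG and those of Sik1 and Nqo1 held GCGTG.
Pck1: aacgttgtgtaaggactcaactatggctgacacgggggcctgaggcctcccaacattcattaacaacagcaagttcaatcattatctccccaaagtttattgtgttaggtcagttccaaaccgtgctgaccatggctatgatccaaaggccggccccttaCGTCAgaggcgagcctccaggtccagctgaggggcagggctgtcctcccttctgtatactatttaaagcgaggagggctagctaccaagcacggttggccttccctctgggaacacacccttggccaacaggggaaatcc
G6pc: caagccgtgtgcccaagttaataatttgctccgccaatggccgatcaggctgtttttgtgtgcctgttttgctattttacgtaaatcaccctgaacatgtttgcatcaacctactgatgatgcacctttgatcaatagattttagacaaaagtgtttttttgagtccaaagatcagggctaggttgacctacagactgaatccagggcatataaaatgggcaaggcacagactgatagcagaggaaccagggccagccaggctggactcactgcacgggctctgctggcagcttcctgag
Crem: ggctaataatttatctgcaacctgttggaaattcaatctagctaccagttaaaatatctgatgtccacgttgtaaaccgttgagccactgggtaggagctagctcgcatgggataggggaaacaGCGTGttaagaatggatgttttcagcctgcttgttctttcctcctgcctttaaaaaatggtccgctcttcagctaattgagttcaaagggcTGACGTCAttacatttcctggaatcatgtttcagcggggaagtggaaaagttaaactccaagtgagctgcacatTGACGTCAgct
Cyp1b1: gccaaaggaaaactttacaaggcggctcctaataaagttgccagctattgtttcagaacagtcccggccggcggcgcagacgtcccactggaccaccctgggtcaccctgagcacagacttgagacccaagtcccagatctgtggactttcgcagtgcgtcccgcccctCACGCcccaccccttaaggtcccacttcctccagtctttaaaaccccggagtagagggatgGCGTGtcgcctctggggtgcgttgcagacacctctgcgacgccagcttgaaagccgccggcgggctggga
Of the 33469 RefSeq promoters of this length, 21.2% held TGACG and 29.7% held GCGTG on either strand, and 1.83% held the full palindrome. A match is a description of letters and not a site.

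**Figure D2:**
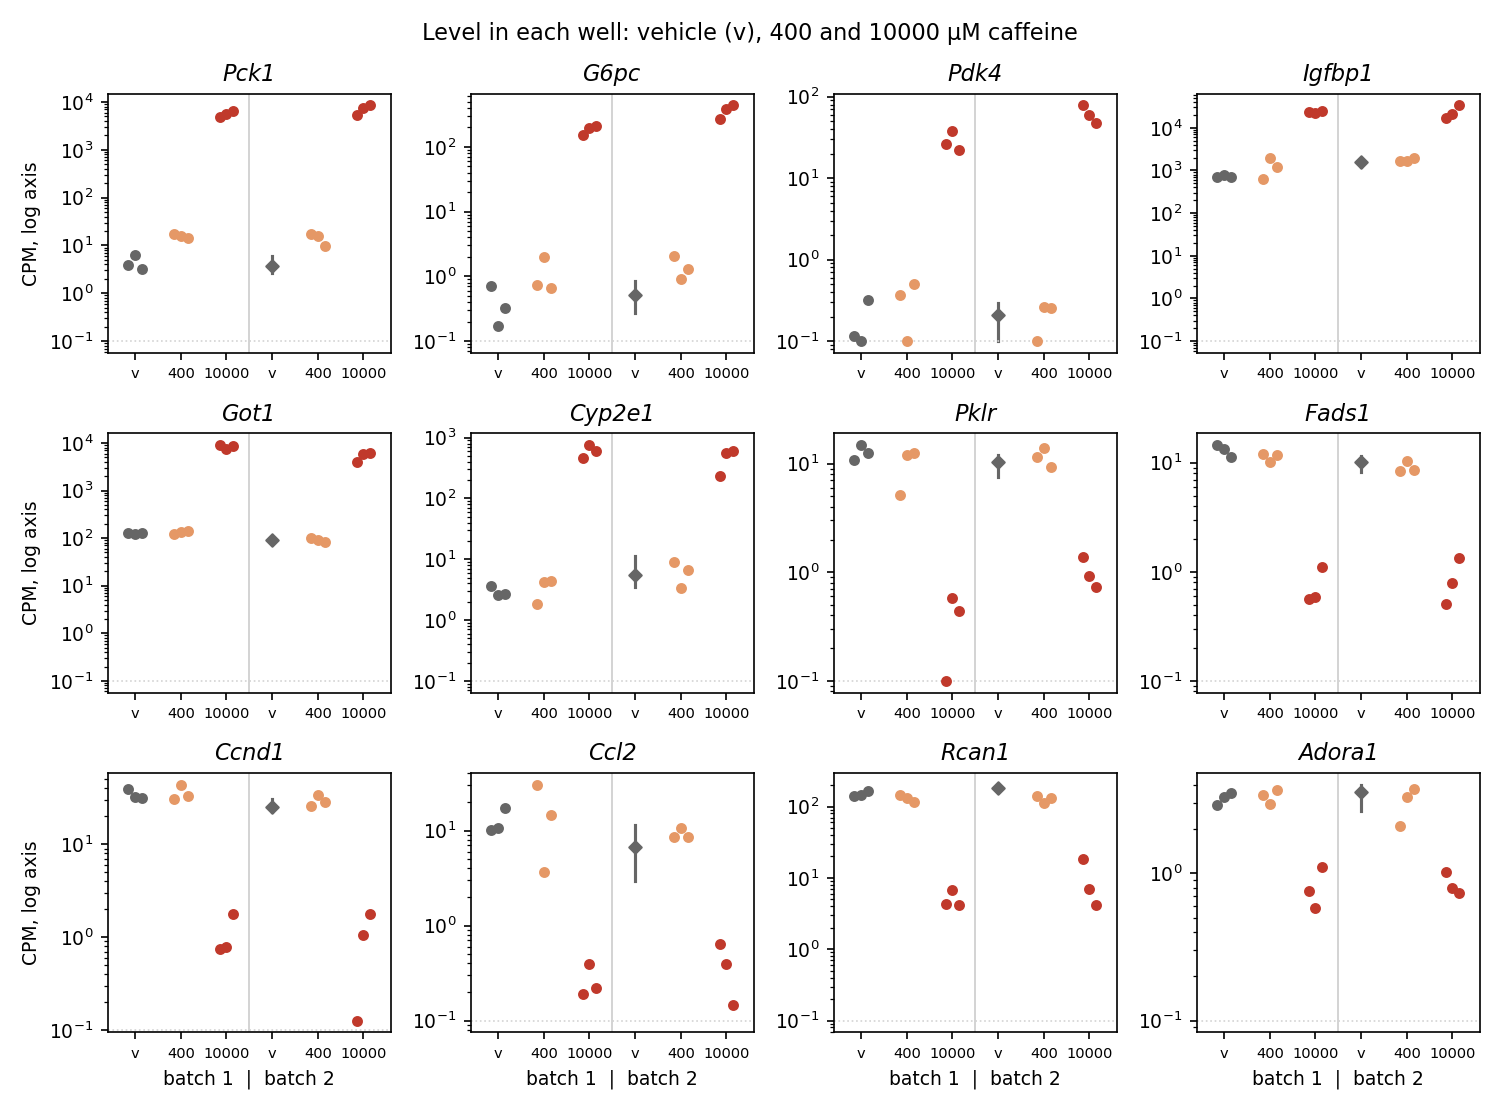
Level (CPM, log axis) in each well of 12 genes, with vehicle (v), 400 µM and 10000 µM caffeine side by side for batch 1 and batch 2. Points are wells, the diamond and line are the median and range of the 6 vehicle wells of batch 2, and values under 0.1, including 0, are drawn at 0.1. In Pck1, G6pc, Pdk4, Igfbp1, Got1 and Cyp2e1 all wells at 10000 µM lie above all vehicle wells, and in Pklr, Fads1, Ccnd1, Ccl2, Rcan1 and Adora1 all lie below them.

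Among phosphodiesterases, the enzymes caffeine inhibits, 2 of 7 genes tested rose and 1 fell (median L2FC 0.30), beside 21.7% and 20.5% of all genes. Pde3a, the isoform that cyclic GMP inhibits, was at 19.7, 23.0 and 23.9 CPM with caffeine and 5.70, 7.76 and 4.80 with vehicle in batch 1. The caffeine wells of batch 2 were at 8.24, 17.5 and 19.4 CPM against 0.8496 to 1.91, and L2FC was 2.69 ± 0.22. Pde10a rose by 1.28 ± 0.18, and Pde5a, which is specific to cyclic GMP, had an L2FC of -1.26 ± 0.16. The rise of Pde3a differed between the rats, with an L2FC of 1.87 in batch 1 and 3.35 in batch 2 (adjusted p of the interaction = 0.0042).

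Of 6 genes of adenosine receptors and adenosine handling, 2 rose and 2 fell (median L2FC -0.23). Adora1, the A1 receptor, fell: its caffeine wells held 0.756, 0.584 and 1.11 CPM in batch 1 and 1.01, 0.795 and 0.735 in batch 2, against 2.91 to 3.52 and 2.67 to 3.99 in the vehicle wells. L2FC was -2.03 ± 0.26, at low counts of 12 and 19 reads over the caffeine wells. Adora2a (0.42 ± 0.28) was not called in either rat, and Adora2b (-0.89 ± 0.30) was called in batch 2 alone. The adenosine kinase gene Adk and the nucleoside transporter Slc29a2 rose by 0.76 ± 0.15 and 0.70 ± 0.14, and Slc28a2, a transporter that concentrates purine nucleosides, had an L2FC of -1.59 ± 0.30. In the wells of batch 2 the groups overlapped for Adk and Slc29a2.

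Calcium genes moved both ways, 3 higher and 4 lower of 10 (median L2FC -0.27). Rcan1, an inhibitor of the calcium-dependent phosphatase calcineurin, fell most. It had 139.7, 145 and 162 CPM in the vehicle wells of batch 1 and 4.35, 6.81 and 4.21 in the caffeine wells, and L2FC was -4.48 ± 0.22. The inositol trisphosphate receptor genes Itpr2 and Itpr1, calcium release channels of the endoplasmic reticulum, rose by 1.97 ± 0.12 and 1.26 ± 0.17. Stim2, a sensor of stored calcium, had an L2FC of -1.83 ± 0.19. The 3 ryanodine receptor genes were not tested.

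Genes of AhR did not move as a group. Of 6 tested, 1 rose and 3 fell (median L2FC -0.20). Cyp1b1 rose by 2.79 ± 0.38 from at most 1.40 CPM with vehicle, on 64 and 56 reads over the caffeine wells. Cyp1a2, an enzyme of caffeine metabolism, was at 159, 92.2 and 192 CPM with caffeine and 608, 586 and 407 with vehicle in batch 1. Its caffeine wells of batch 2 held 210.0, 160.0 and 189 CPM, below all vehicle wells (515 to 751), and L2FC was -1.90 ± 0.20. Aldh3a1, an aldehyde dehydrogenase, had an L2FC of -3.99 ± 0.48, and the quinone reductase gene Nqo1 one of -0.84 ± 0.16. Cyp1a1 was called in batch 1 only: L2FC was 0.90 there and -0.36 in batch 2, and this difference passed the test of the interaction (adjusted p = 0.0033).

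On the caffeine metabolism list, 2 of 6 rose and 2 fell (median L2FC 0.19). Cyp2e1 rose, with 471, 756 and 600.1 CPM in the caffeine wells of batch 1 against 2.59 to 3.61 with vehicle. In batch 2 the caffeine wells held 229.5, 556 and 613 CPM against 3.49 to 11.5. Xdh, xanthine dehydrogenase, rose by 0.86 ± 0.13. Uox, urate oxidase, had an L2FC of -1.92 ± 0.21, and the N-acetyltransferase genes Nat1 (0.24) and Nat2 (0.13) were not called in both rats.

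All 6 tested targets of the xenobiotic receptors CAR and PXR rose (median L2FC 1.95). Cyp2b2 was at 249, 424 and 293 CPM with caffeine against 3.49, 5.52 and 1.92 with vehicle in batch 1, and L2FC was 6.48 ± 0.29. Its near copy Cyp2b1, whose reads the probes may share, rose by 5.47 ± 0.38. Por, the reductase that supplies electrons to P450 enzymes, rose by 2.65 ± 0.12 and Alas1, the first enzyme of haem synthesis, by 1.24 ± 0.13. Among P450 genes expressed constitutively, 4 of 10 rose and 4 fell (median L2FC -0.75). Cyp2c6v1 (2.91 ± 0.25), Cyp2c22 (2.37 ± 0.21) and Cyp2c7 (2.12 ± 0.26) rose with Cyp2e1. Cyp2c7 rose more in batch 1 (3.29) than in batch 2 (1.10), with an adjusted p of the interaction of 0.0013.

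Conjugation enzymes fell more often than they rose, 6 against 1 of 10 (median L2FC -1.24). Gstp1, the pi class glutathione transferase, had 127, 112 and 104 CPM in the vehicle wells of batch 1 and 6.99, 8.56 and 10.8 in the caffeine wells. Batch 2 had 209 to 287 CPM with vehicle and 52.0, 30.2 and 39.4 with caffeine. L2FC was -3.03 ± 0.21. The epoxide hydrolase gene Ephx1 (-2.06 ± 0.14), Gsta4 (-2.02 ± 0.19) and Gstm2 (-1.58 ± 0.12) fell as well. On the list of NRF2 targets, genes of the oxidant response, 6 of 10 fell and 1 rose (median L2FC -0.81). The catalytic subunit of glutamate-cysteine ligase, Gclc, the first step of glutathione synthesis, had an L2FC of -2.02 ± 0.15 and Osgin1 one of -1.56. Hmox1, haem oxygenase, was the gene that rose (1.05 ± 0.26). Its wells overlapped in batch 2, and it was not called in both rats without well 1 of batch 2, where its L2FC was 0.91 ± 0.27.

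Genes of glucose handling moved both ways. Of 16 genes of gluconeogenesis and glucose handling 4 rose and 8 fell (median L2FC -0.87). With Pck1 and G6pc, the fructose bisphosphatase gene Fbp1 rose by 2.34 ± 0.11, from 121 to 128 CPM to 515 to 594 in batch 1. Pklr, liver pyruvate kinase, the last step of glycolysis, was at 10.7, 14.8 and 12.6 CPM with vehicle and 0, 0.584 and 0.443 with caffeine in batch 1. In batch 2 its vehicle wells held 7.56 to 12.1 CPM and its caffeine wells 1.39, 0.927 and 0.735. No wells of the groups overlapped, and L2FC was -3.87 ± 0.30. The glucose transporter Slc2a2 had an L2FC of -1.81 ± 0.15.

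Targets of insulin and FoxO rose in 7 of 9 cases, and 1 fell (median L2FC 1.84). Igfbp1, an insulin-like growth factor binding protein that insulin represses, was at 23113, 22808 and 24309 CPM with caffeine in batch 1 and at 708, 789 and 712 with vehicle. In batch 2 it was at 16819.6, 21426 and 33778 CPM against 1206 to 1824. L2FC was 4.40 ± 0.24, or 21.1-fold. Irs2, an adaptor of the insulin receptor, rose by 5.07 ± 0.26, and the transcription factor Klf15 by 2.81 ± 0.16. Sesn3 went the other way, from 45.0 to 60.1 CPM in batch 1 to 6.86 to 9.45, with an L2FC of -2.65 ± 0.13. On the growth hormone and IGF list 2 of 7 genes rose and 0 fell (median L2FC 0.33), namely Igfbp1 and Igfbp3. Igfbp3 rose by 3.56 ± 0.28, with 1.84 in batch 1 and 4.71 in batch 2 (adjusted p of the interaction = 4.3e-07). At an unadjusted p under 0.05 in both rats, 4 genes of this list were higher and 0 lower, beside 23.5% and 22.0% of all genes.

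Genes of fatty acid synthesis fell, 9 of 13 with 0 higher (median L2FC -1.07), and the counts were the same by DESeq2. An unadjusted p under 0.05, which cannot lower the counts, added no gene. Fads1, the delta-5 desaturase, was at 14.5, 13.5 and 11.4 CPM with vehicle and 0.567, 0.584 and 1.11 with caffeine in batch 1. Batch 2 went from 8.15 to 11.4 CPM to 0.507, 0.795 and 1.32, and L2FC was -3.77 ± 0.26. Thrsp had an L2FC of -2.33 ± 0.19. Srebf1, the transcription factor that raises lipogenic genes after insulin, was at -2.07 ± 0.16, and Fasn, fatty acid synthase, at -1.94 ± 0.19. Both fell more in batch 1 (-2.92 and -2.80) than in batch 2 (-1.54 and -1.29). In cholesterol synthesis and uptake 8 of 19 fell and 2 rose (median L2FC -0.53). Nsdhl (-2.25 ± 0.08) and the HMG-CoA synthase gene Hmgcs1 (-1.96 ± 0.31) fell.

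PPARalpha targets and genes of fatty acid oxidation rose in 16 of 19 cases and fell in 1 (median L2FC 1.40). Cyp4a1 had 313, 332 and 297 CPM in the caffeine wells of batch 1 against 1.05, 1.55 and 2.24 with vehicle. Cyp4a2, a related hydroxylase whose probes may share reads with it, rose by 6.17 ± 0.32. The acyl-CoA thioesterase gene Acot1 had 1 read over the vehicle wells of each batch and 60 and 100 over the caffeine wells, 82.9-fold higher in batch 1 (95% exact counting interval 14.3 to 3328) and 183-fold in batch 2 (32.2 to 7317). Cpt1a, the gate of fatty acids into mitochondria, rose by 3.39 ± 0.20. Fgf21, a fasting hormone of the liver and itself a PPARalpha target, fell. It had 43.3, 57.1 and 31.0 CPM with vehicle and 3.21, 3.502 and 1.55 with caffeine in batch 1, and L2FC was -4.64 ± 0.31.

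Amino acid breakdown rose in 12 of 18 genes and fell in 2 (median L2FC 1.40). Got1, cytosolic aspartate aminotransferase, stood at 9062, 7495 and 8754 CPM with caffeine against 127, 123 and 127 with vehicle in batch 1, and at 3902, 5761 and 6170.3 against 76.9 to 102 in batch 2. L2FC was 5.98 ± 0.10, or 63.0-fold (adjusted p = 3.9e-108). Tdo2, tryptophan dioxygenase, rose by 4.45 ± 0.22, from 167 to 259 CPM to 2879 to 4097 in batch 1. Aass, the first enzyme of lysine breakdown, rose by 3.84 ± 0.19, more in batch 1 (4.56) than in batch 2 (3.04).

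In the urea cycle 5 of 7 genes rose and 1 fell (median L2FC 1.72). Ass1, argininosuccinate synthase, had 160.4, 176 and 128 CPM with vehicle and 4076, 4276 and 5387 with caffeine in batch 1, with an L2FC of 4.23 ± 0.13. The next enzyme, Asl, rose by 3.52 ± 0.14 and Cps1, carbamoyl phosphate synthetase, by 2.18 ± 0.16. Otc, ornithine transcarbamylase, which stands between Cps1 and Ass1, had an L2FC of -2.31 ± 0.21, with 33.0 to 36.7 CPM with vehicle and 3.54 to 8.75 with caffeine in batch 1.

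Stress genes did not share a direction. Of 16 genes of the integrated stress response and ATF4, 4 rose and 8 fell (median L2FC -0.72). Ddit3, which encodes the factor CHOP, rose from 22.7, 24.8 and 27.5 CPM to 229, 249.6 and 255 in batch 1 and to 221 to 329.7 in batch 2, with an L2FC of 3.30 ± 0.16. The serine synthesis genes Phgdh (-3.28 ± 0.24) and Psat1 (-2.52 ± 0.15) fell, as did Fgf21, which is also on this list. Trib3 was at 0.05 ± 0.16 and not called. Of 14 chaperones and helpers of the endoplasmic reticulum 4 rose and 1 fell (median L2FC 0.28), with Edem1 at 1.36 ± 0.12 and P4hb at -0.89 ± 0.12. Of 10 cytosolic heat shock genes 5 rose and 1 fell (median L2FC 0.65), led by Hspb1 (1.62 ± 0.13) and Hspa1a (1.56 ± 0.23). Without well 1 of batch 2, 4 of these genes rose and the L2FC of Hspa1a was 0.998.

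Targets of p53 were at 4 higher and 3 lower of 15 (median L2FC 0.17), near the 21.7% and 20.5% of all genes tested. The cell cycle inhibitor Cdkn1a rose by 1.75 ± 0.17, from 4.32 to 6.90 CPM to 13.4 to 24.1 in batch 1. Sesn1 (1.84 ± 0.24) and Btg2 (1.46 ± 0.17) rose, and Mdm2, the p53 ligase and a direct target, was at 0.16 ± 0.13 and not called. By ST assay Mdm2 had an L2FC of 0.32 ± 0.13 (adjusted p = 0.019 in the fit of both batches) and was likewise not called in both rats. On the lysosome and autophagy list 5 of 17 rose and 2 fell (median L2FC 0.45). The autophagosome genes Gabarapl1 and Map1lc3b rose by 3.22 ± 0.14 and 2.78 ± 0.08. Map1lc3b had 276, 272 and 278 CPM with vehicle and 2525, 2006 and 2489 with caffeine in batch 1. Of 5 metallothionein and zinc genes 3 rose and 1 fell, or 2 without well 1 of batch 2 (median L2FC 0.75). Metallothionein Mt1 had 78.8, 92.3 and 74.8 CPM with vehicle and 3920.3, 2361 and 5301 with caffeine in batch 1, an L2FC of 4.78 ± 0.40, and Mt2A rose by 4.03 ± 0.32.

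Hepatocyte transcription factors and secreted proteins divided. On the hepatocyte identity list 5 of 14 rose and 5 fell (median L2FC 0.14). Alb, albumin, had 7889.8, 6944 and 9011 CPM with caffeine and 11692, 11226 and 9685 with vehicle in batch 1, and L2FC was -0.81 ± 0.10. Tf, transferrin (-2.43 ± 0.14), and Apoa1 (-1.47 ± 0.12) fell further, while the transcription factor Cebpb rose by 1.97 ± 0.11. Of 19 coagulation genes 5 rose and 8 fell (median L2FC -0.29). The fibrinogen gene Fgb rose by 2.09 ± 0.17, and Serpind1, heparin cofactor II, and Serpinf2, antiplasmin, had L2FCs of -3.06 ± 0.19 and -2.51 ± 0.22. Of 12 acute phase genes 3 rose and 5 fell (median L2FC -0.37), with Hamp, the iron hormone hepcidin, up by 4.88 ± 0.26 and Socs3, a feedback inhibitor of cytokine signalling, by 2.28 ± 0.21. In bile acid synthesis and transport 4 of 12 rose and 3 fell (median L2FC 0.19), beside 21.7% and 20.5% of all genes. The export pump Abcc3 (1.87 ± 0.14) and Cyp27a1 (1.35 ± 0.14) rose and the uptake transporter Slco1a1 (-2.57 ± 0.25) fell. Cyp7a1, the rate-limiting enzyme of bile acid synthesis, had 2 reads in these 15 wells together and was not tested.

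Chemokines and NF-kB feedback genes fell in 9 of 12 cases and rose in 1 (median L2FC -1.54). Ccl2, the monocyte chemokine, had 10.1, 10.7 and 17.1 CPM with vehicle and 0.189, 0.389 and 0.221 with caffeine in batch 1. In batch 2 it had 2.95 to 11.5 CPM with vehicle and at most 0.634 with caffeine, and L2FC was -4.75 ± 0.58 (-5.19 without well 1 of batch 2). Ccl20 had 3 and 4 reads over the caffeine wells, against 160 and 154 over the vehicle wells. Cxcl2 (-2.87 ± 0.26) and the NF-kB subunit Relb (-2.37 ± 0.15) fell, and Nfkbia, the inhibitor of NF-kB, rose by 1.17 ± 0.16. Cxcl10 was lower in batch 1 (4.87 to 8.17 against 41.9 to 60.5 CPM). In batch 2 well 1 held 341 CPM and the other caffeine wells 17.8 and 10.6, against 31.8 to 58.7 with vehicle. Its L2FC was 0.47 ± 0.35 with that well and -2.20 ± 0.35 without it, where 10 of the 12 genes of the list were lower in both rats.

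Some interferon stimulated genes also depended on well 1 of batch 2, in direction (Isg15 and Irf7) or in size alone. Of 13 tested, 2 rose and 4 fell, with a median L2FC of -0.69 in batch 1 and 0.78 in batch 2, and without that well 2 rose and 5 fell. Rsad2, an antiviral enzyme, was at 3.59, 2.33 and 2.66 CPM with caffeine in batch 1 against 0.160 to 1.21. In batch 2 it was at 256, 20.4 and 6.62 CPM against 0 to 1.04. L2FC was 6.62 ± 0.56, and 4.48 ± 0.57 without the well. Isg15 was at 332, 20.3 and 6.18 CPM with caffeine in batch 2, against 6.38 to 17.6, and its L2FC went from 1.65 ± 0.52 to -0.65 ± 0.55. Without vehicle well 2 of batch 1 it was 2.92. Irf7 likewise went from 1.34 ± 0.38 to -0.91 ± 0.40, and Oasl from 4.13 ± 0.48 to 1.86 ± 0.47 (4.76 without vehicle well 2 of batch 1). In edgeR's test of batch 1 alone neither was called, at -0.95 for Irf7 (adjusted p = 0.18) and 1.08 for Oasl (0.17). The immunoproteasome gene Psmb9 and the guanylate binding protein gene Gbp2 fell with the well (-2.40 and -2.06) and without it (-2.90 and -3.86).

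Immediate early genes fell in 6 of 15 cases and rose in 1 (median L2FC -0.59). Egr2 (-2.66 ± 0.24) and Fosl1 (-2.62 ± 0.32) fell, and Fosl2 rose by 1.81 ± 0.14. In the cell cycle list 7 of 17 fell and 1 rose (median L2FC -0.83). Ccnd1, cyclin D1, the growth factor-driven cyclin of G1, had 39.2, 32.1 and 31.2 CPM with vehicle and 0.756, 0.778 and 1.77 with caffeine in batch 1. In batch 2 it had 22.4 to 30.8 CPM with vehicle and 0.127, 1.06 and 1.76 with caffeine, and L2FC was -4.87 ± 0.35. The proliferation gene Mki67 (-3.24 ± 0.40) and the topoisomerase gene Top2a (-2.64 ± 0.45, and -3.25 without caffeine well 2 of batch 2) fell. In the circadian clock list 5 of 15 rose and 1 fell (median L2FC 0.94). Nr1d2 (2.73 ± 0.23), a repressor of the clock, and Per3 (2.38 ± 0.21) rose more in batch 2 (3.46 and 3.09) than in batch 1 (1.59 and 1.27), and Npas2 fell more in batch 2 (-2.78) than in batch 1 (-0.90).

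**Figure D3:**
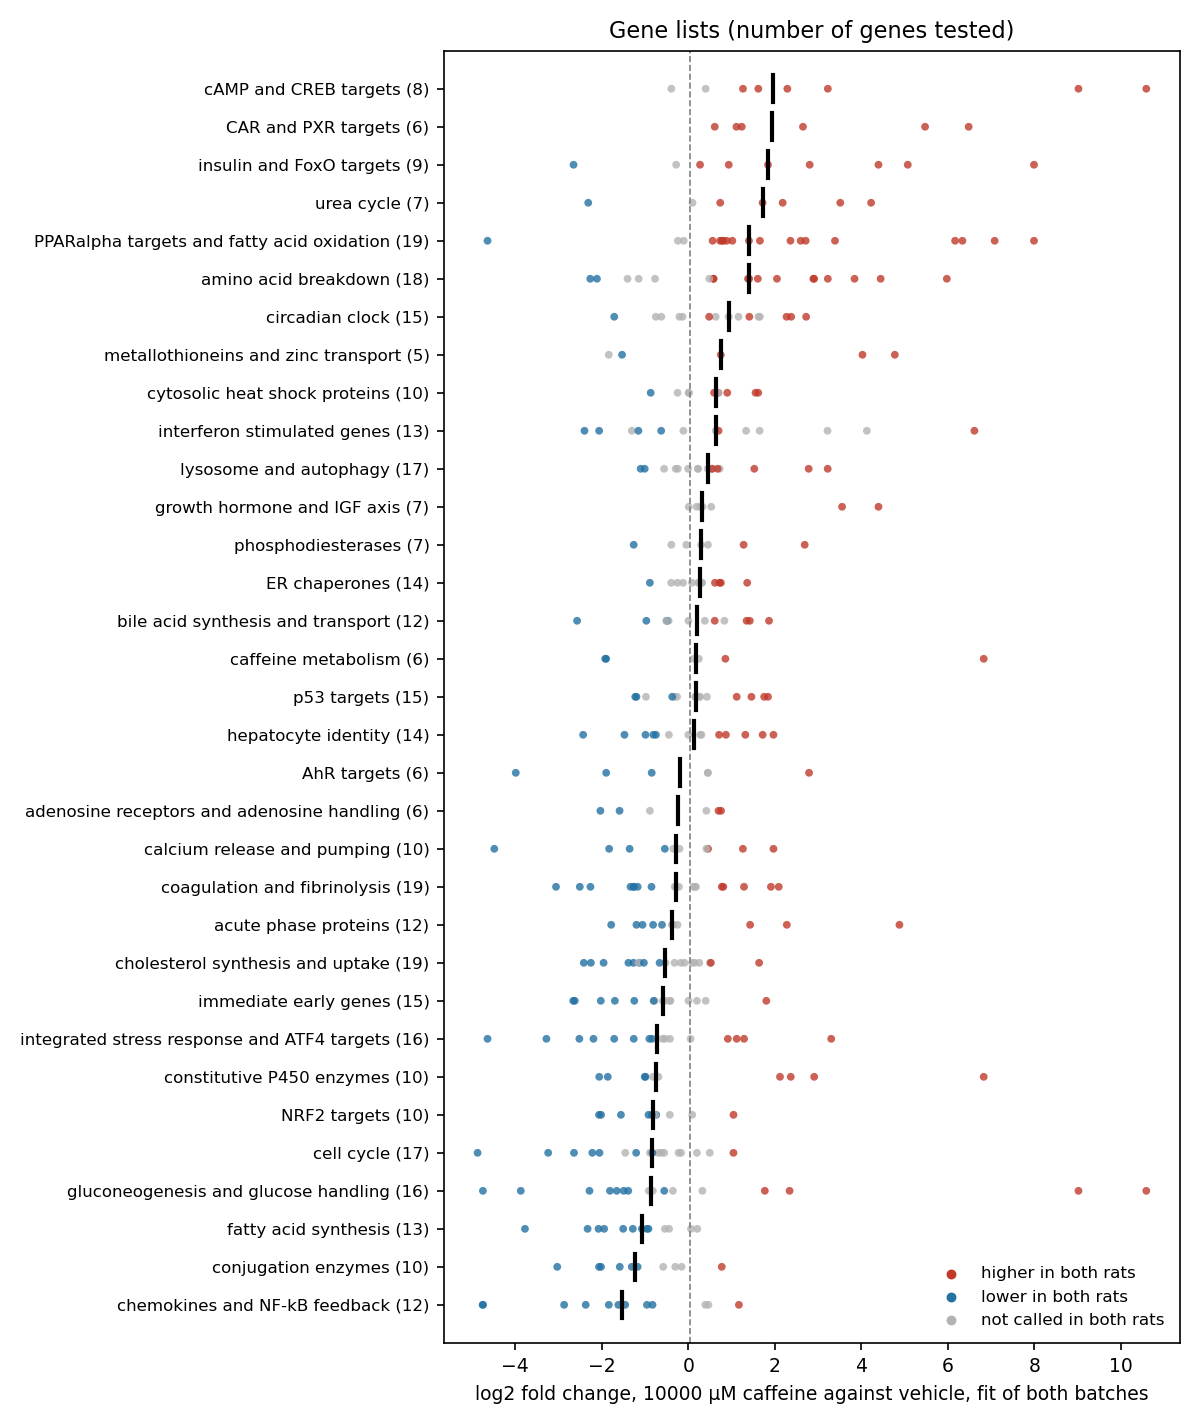
L2FC of every gene tested on the 33 lists, from the fit of both batches, with the number tested in brackets. Red points rose in both rats, blue points fell, grey points were not called in both; the black bar is the median of a list and the dashed line the median of all genes tested (0.05). Medians run from -1.54 for chemokines and NF-kB feedback to 1.96 for cyclic AMP and CREB targets.

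The rats differed for a minority of genes. The interaction of batch and treatment passed an adjusted p of 0.05 for 895 genes (8.78%). Without caffeine well 1 of batch 2 it passed for 578, and without any other single well for 653 to 953. Most named genes with a difference kept their direction in both rats and differed in size, such as Ass1, which rose by 4.89 in batch 1 and 3.81 in batch 2. Igfbp1 rose by 4.99 and 3.95, a difference of -1.04. Without caffeine well 1 of batch 2 it was -0.84 and did not pass (adjusted p of the interaction = 0.20). Psat1 was at -2.01 and -3.31.

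At 400 µM, the low concentration of caffeine, 1 gene was called higher in both rats (0.00981%) and 0 lower, against 35 (0.343%) and 25 (0.245%) at an unadjusted p under 0.05 and 3 (0.0294%) and 1 (0.00981%) by DESeq2. The gene was Pck1, with 14.6 to 17.2 CPM in batch 1 and 9.76 to 17.0 in batch 2, an L2FC of 1.90 against vehicle. Alone, batch 1 had 3 calls and batch 2 had 70, and 371 and 1034 genes had an unadjusted p under 0.05. Since both concentrations share the vehicle wells as controls, their values are given side by side. Tat was at 0.53 at 400 µM and 3.23 at 10000 µM, and G6pc at 1.31 and 9.02. Igfbp1 was at 0.41 and 4.40, Got1 at 0.06 and 5.98 and Ccnd1 at 0.13 and -4.87. In the direct contrast of 10000 µM with 400 µM, which uses no vehicle well, 2036 genes were higher in both rats (20.0%) and 1974 lower (19.4%). Pck1 was higher by 8.69 there, Got1 by 5.91 and Cyp2e1 by 6.88. In batch 1 the wells at 400 µM correlated less than other replicates, with a lowest r of 0.949 on log2(CPM + 1), against 0.981 at 10000 µM and 0.985 with vehicle.

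Caffeine was then set against the other 13 chemicals at their high concentration, whose doses differ. On the caffeine plates, plate 4 in batch 1 and plate 2 in batch 2, were 7 of these chemicals, while acetaminophen, chloramphenicol, indomethacin, ketoconazole, sulfasalazine and WY14643 were on plate 5 in batch 1, which held no vehicle well, and plate 3 in batch 2. Plate and chemical cannot be told apart for these 6 in batch 1, while plate 3 held 3 of the vehicle wells of batch 2. In the contrast with the mean of these 13, 2241 genes were higher with caffeine in both rats (22.0%) and 2067 lower (20.3%), together 4308 (42.3%), against 2276 and 2091 in the contrast with the 7 on the same plates. Among the 2213 genes that rose, caffeine had the highest L2FC of the 14 chemicals for 783, and among the 2088 that fell, the lowest for 677. Genes called with caffeine are picked by their caffeine values, which favours an extreme rank. The same ranks over all genes tested, or for another chemical, are not given. All L2FCs against vehicle share the vehicle wells. For Pck1 the next value was 4.26 with naproxen, and the median of the 13 was 1.71. Got1 was at most 1.24 (valproic acid) and Ppp1r3g at most 2.26 (WY14643) with another chemical. Ass1 was at most 1.28 (ranitidine), and its median was -0.61. Cps1 was at or below 0.48 with every other chemical and had a median of -1.80. Fads1 was between -1.31 and 2.71 with the others and -3.77 with caffeine, and Gstp1 between -0.87 and 1.48 against -3.03.

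Some large rises were not highest with caffeine. Cyp4a1 reached 10.94 with WY14643, a PPARalpha agonist, above the 7.08 of caffeine, and Cyp2b2 8.70 against 6.48. Pdk4 reached 8.97 with WY14643 against 7.99, and Ddit3 6.30 with diclofenac against 3.30. The list of urea cycle genes was higher with caffeine than with the mean of the other chemicals in both rats for 6 of 7 genes (median difference of L2FC 3.06). Of the amino acid breakdown genes 13 of 18 were higher and 1 lower (1.93). Of the cholesterol genes 16 of 19 were lower and 0 higher (-1.11), and of the fatty acid synthesis genes 11 of 13 were lower and 1 higher (-1.56). With the 7 chemicals on the same plates alone, the urea cycle count was also 6 higher, amino acid breakdown had 13 higher and 2 lower, cholesterol genes 14 lower and 1 higher and fatty acid synthesis genes 10 lower and 1 higher.

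**Figure D4:**
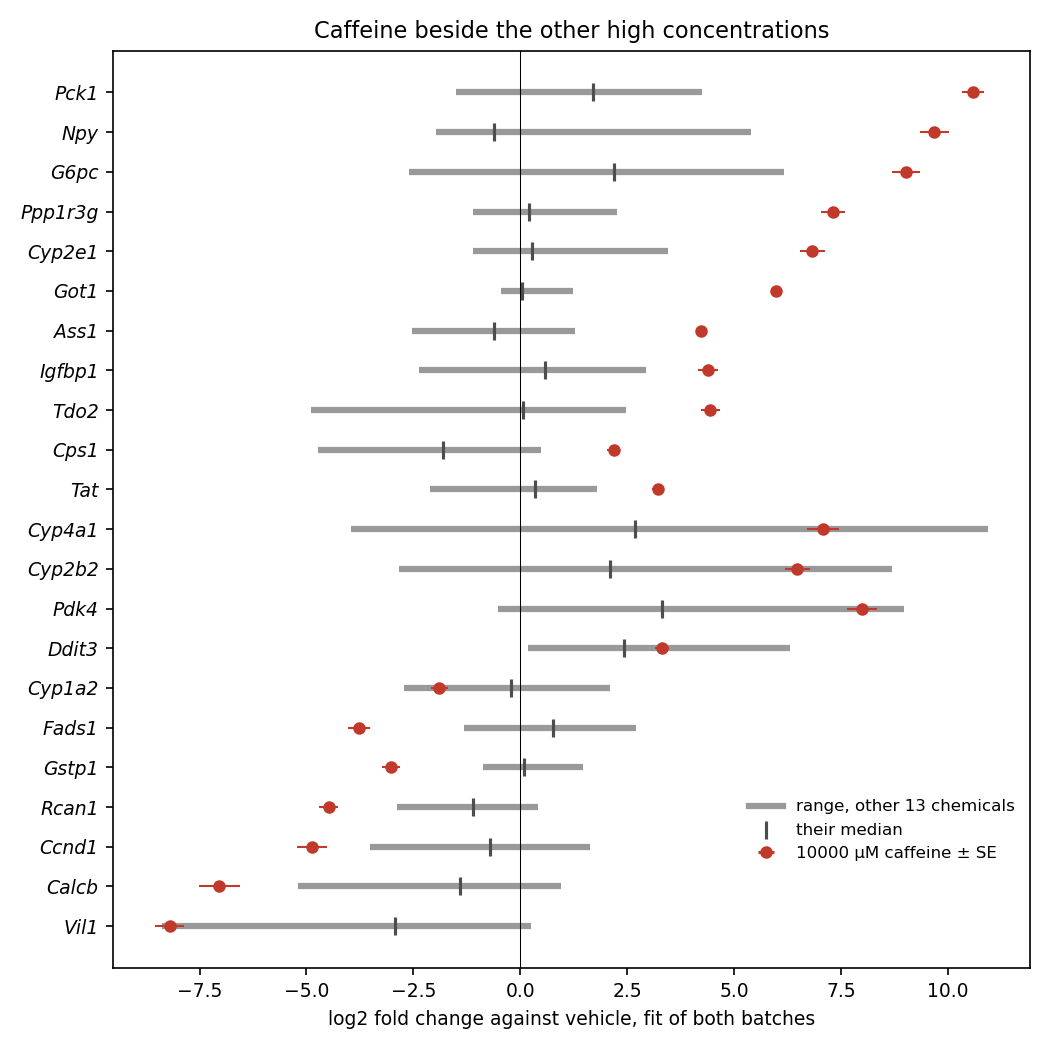
L2FC against vehicle of 10000 µM caffeine (red point ± SE) beside the range (grey bar) and median (dark tick) of the other 13 chemicals at their high concentration, from the fit of both batches. Caffeine lies above the range for Pck1, Npy, G6pc, Ppp1r3g, Cyp2e1, Got1, Ass1, Igfbp1, Tdo2, Cps1 and Tat and below it for Fads1, Gstp1, Rcan1, Ccnd1 and Calcb.

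By ST assay of the same lysates, 413 of 1760 genes rose in both rats (23.5%) and 474 fell (26.9%), together 887 (50.4%). Among the 1603 genes tested in both assays, 726 were called in both with the same direction and 0 with opposite directions. These were 87.3% of the WT calls and 89.3% of the ST calls. Of the 188 genes followed here, 110 were tested by ST assay, and all 110 had the sign of the WT assay. Pck1 had an ST L2FC of 10.51, Igfbp1 4.55, Got1 6.36, Cyp2e1 6.95, Pklr -3.49 and Ccnd1 -4.82. The wells are the same, so the ST values check the probes and not the response.

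Markers of cell types were compared to check the labelled cells. The 8 hepatocyte markers with a probe were present in all wells and made up 22865 to 27703 CPM with caffeine and 33656 to 39317 with vehicle in batch 1. In batch 2 they summed to 17628 to 26819 CPM with caffeine and 38483 to 45052 with vehicle. Of them 1 rose, Fgb, and 5 fell. Of the Kupffer cell and leukocyte markers, 8 of 10 had a probe and 5 were tested: Clec4f (-3.82 ± 0.35), Cd163 (-3.21 ± 0.31) and Csf1r (-2.21 ± 0.29) fell, Cd14 rose by 2.04 ± 0.15 and Cd68 (0.06 ± 0.23) was not called. Ptprc was at 0 in all caffeine wells. Their summed level, which Cd14 dominates, was 131 to 153 CPM with caffeine and 54.8 to 78.8 with vehicle in batch 1, and 101 to 169.9 and 59.1 to 74.9 in batch 2. Clec4f, a lectin of Kupffer cells, had 0.567, 3.502 and 0.664 CPM with caffeine and 14.5, 21.9 and 11.8 with vehicle in batch 1, and no caffeine well of either batch overlapped with a vehicle well. Without well 2 of batch 1 its L2FC was -4.53.

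All 3 tested markers of stellate cells and fibroblasts fell, with Col1a2 at -2.47 ± 0.18, Col3a1 at -2.02 ± 0.19 and Reln at -2.29 ± 0.13. The 7 with a probe summed to 79.5 to 110.1 CPM with caffeine and 361 to 387 with vehicle in batch 1, and to 42.5 to 51.3 and 241 to 309.98 in batch 2, with Des, Acta2 and Col1a1 at 0 in every caffeine well. Col1a1 was also at 0 in the vehicle wells of batch 2. The 7 endothelial markers summed to at most 5.00 CPM in any well and none was tested. Their sum was 0.378 to 1.56 CPM with caffeine and 2.56 to 5.00 with vehicle in batch 1. In batch 2 it was 0.882 to 3.80 and 2.08 to 4.40. Of 6 biliary markers 3 were tested and 0 called in both rats, also by DESeq2 and at an unadjusted p under 0.05. The biliary sum was 38.7 to 39.9 CPM with caffeine and 35.9 to 41.6 with vehicle in batch 1. In batch 2 it was 32.2 to 39.8 with caffeine, below the 40.9 to 48.9 with vehicle. The falls of macrophage and stellate markers stood beside the falls of chemokines and of Vsig4, and their part in these results was not tested.

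**Figure D5:**
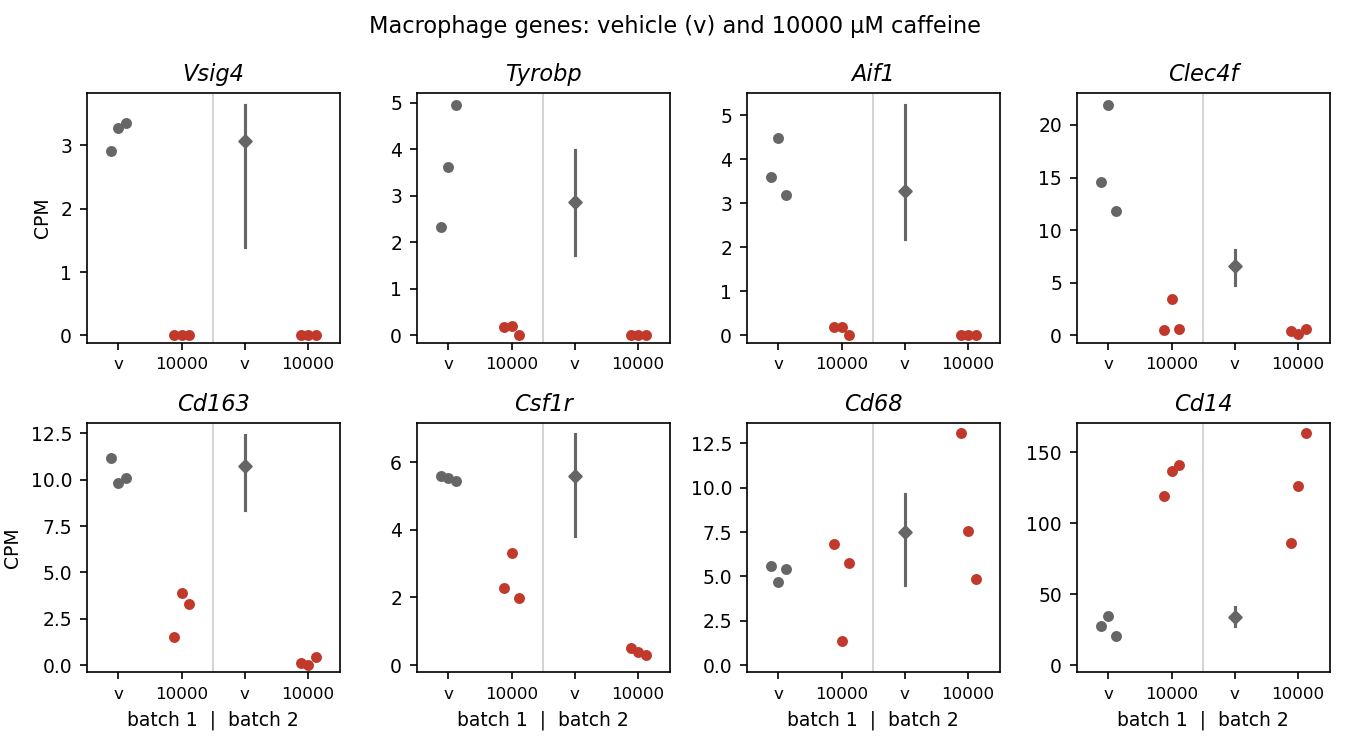
Level (CPM) of 8 macrophage genes in the vehicle wells (v) and the 10000 µM caffeine wells of batch 1 and batch 2. Points are wells, and the diamond and line are the median and range of the 6 vehicle wells of batch 2. Vsig4 is at 0 in all 6 caffeine wells, Tyrobp, Aif1, Clec4f, Cd163 and Csf1r lie below the vehicle wells, Cd68 overlaps with them and Cd14 lies above them.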

How the data were processed

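WT and ST libraries were made by the authors from the same lysates. According to their methods, reads were aligned to the rat genome rn6 with STAR 2.5.3a, with up to 2 mismatches. The deposited values are counts of reads per probe, not normalised, for 22253 WT probes (20946 symbols) and 2654 ST probes (2604 symbols). Wells were grouped by the labels of chemical, concentration and batch. The members and gene lists were chosen with earlier results of these data known.

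Counts of probes with the same symbol were summed, and genes averaging at least 10 counts over the 186 WT wells were tested. For each batch, edgeR 4.0.16 (R 4.3.3, limma 3.58.1) fitted a quasi-likelihood model over all groups after TMM normalisation. A call needed a Benjamini-Hochberg adjusted p under 0.05 over all genes in each batch, with the same sign. The L2FC came from a fit of both batches with a batch term, and its SE is the L2FC divided by the square root of F. CPM use TMM library sizes within a batch and compare wells, not genes. The same fits gave the contrasts with 400 µM and with the other chemicals, the ST values and the interaction, batch 2 minus batch 1. For groups with 0 reads the floor was 3 reads over the group, and intervals are exact at 95% and cover counting error alone, since reads carry no molecular identifiers. The p-values within a batch measure the spread between wells of 1 rat, which is technical. The fit of both batches also counts wells as replicates, so its p-values and SEs are no test across animals. The 2 rats are the biological replicates.

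Named genes were the 10 largest rises and falls among called genes, leaving out symbols that start with LOC, RGD or AABR, the 4 most changed called genes of each list, and genes of the pathways of caffeine whatever their values. Chosen in the report after their values were seen were Cpt1a, Fbp1, Fos, Itpr1, Nat1, Nat2, Nfkbia, Pde4b, Sesn3, Slc2a2, Cxcl10, Irf7, Isg15, Oasl, Aif1 and Tyrobp, as were the genes of the closing observations. Markers of cell types were on a list of their own. Alternatives were DESeq2 1.42.0, RLE size factors, no count filter, single probes, an absolute L2FC of at least 1, fewer wells in the fit and leaving out each well in turn. The scripts were tested on simulated data. Some named genes are not reported here. Reads per well were 5194574 to 8264980 in the WT wells used, and 870728 to 1643796 in the ST wells.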

Additional observations from a re-analysis of the deposited data

Results flagged for a closer look

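For the following genes, the effect of 10000 µM caffeine differed between the rats by the interaction of batch and treatment in edgeR (adjusted p under 0.05). Values are the L2FC in batch 2 minus that in batch 1, and rat, plate and sequencing cannot be told apart in them. Among interferon and chemokine genes the difference was 5.49 for Isg15, 5.43 for Rsad2, 4.44 for Cxcl10, 4.38 for Oasl, 3.27 for Irf7, 2.33 for Gbp2, 1.11 for Psmb9 and 0.80 for Psmb8. Well 1 was the highest caffeine well of batch 2 for all 8 genes. Without it, none of the 8 differences passed, with 2.31 for Isg15 (adjusted p = 0.14), 2.63 for Rsad2 (0.31), 1.31 for Cxcl10 (0.078), 1.30 for Oasl (0.47), -0.037 for Irf7 (0.99), 0.17 for Gbp2 (0.87), 0.41 for Psmb9 (0.43) and 0.45 for Psmb8 (0.30). Of the 43 genes given here as differing, 11 others no longer passed without this well, with unchanged signs. Their differences without it were -0.45 for Alb, -0.93 for Col1a2, -1.19 for Cyp2e1, -1.81 for Fgf21, 1.01 for Flna and 0.84 for Gstp1. They were 0.33 for Hspa4, -0.84 for Igfbp1, -0.49 for Nfil3, -0.63 for Tf and -0.73 for Uox. Those of Fgf21 and Nfil3 were larger than with the well, and a fit without it has fewer caffeine wells to test.

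The difference was -3.91 for Cd163, -2.93 for C1qc, -2.73 for Cybb, -2.58 for Csf1r and -2.02 for Ctss, genes expressed in macrophages, and -0.98 for the collagen gene Col1a2. Other genes of these kinds did not pass, with 0.44 for Cd68 (adjusted p = 0.63), -0.81 for Clec4f (0.64), -0.98 for Cd74 (0.20), -0.075 for Col3a1 (0.93) and -0.58 for Reln (0.054). Nor did the macrophage genes Aif1 (-2.85, adjusted p = 0.34), Tyrobp (-2.67, 0.31), Cd5l (-2.06, 0.11) and Lyz2 (-1.17, 0.41). Aif1 and Tyrobp had no reads in the caffeine wells of batch 2, so their values are no measure of size. The actin binding gene Flna fell less in batch 2 (1.15). Among metabolic genes and transcription factors of metabolism the difference was -2.20 for Cyp2c7, -1.52 for Aass, -1.52 for Fgf21, -1.51 for Cyp2e1, -1.29 for Psat1, -1.08 for Ass1, -1.04 for Igfbp1, -1.03 for Foxo1, -1.004 for Uox, 0.90 for Tdo2, 1.07 for Gstp1, 1.38 for Srebf1 and 1.52 for Fasn. Igfbp3 differed by 2.87 and Pde3a by 1.48. Cyp1a1 differed by -1.26.

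Of the clock genes, Nr1d2 differed by 1.87, Per3 by 1.81, Npas2 by -1.88 and Nfil3 by -0.48. Smaller differences were found for Abcc3 (-0.91), Fosl2 (0.79), Tf (-0.63), Slc39a14 (-0.63), Alb (-0.57), Map1lc3b (-0.57) and Hspa4 (0.52). The value of -6.36 for Npy rests on vehicle wells of batch 1 with 0 reads and is no measure of size.

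In the 6 vehicle wells of batch 2, 1 well lay apart from the others for 10 of the 188 genes examined by Dixon's 95% criterion, and the values are its gap to the next well divided by the range. The highest well lay apart for Acot1 (1.00, from 1 read in 1 well), Isg15 (0.75), Oasl (0.69), Lyz2 (0.68) and Npy (0.66). The lowest well lay apart for Ppp1r3g (0.76), Mdm2 (0.71), Ddit3 (0.64), Hamp (0.63) and Hspb1 (0.63). The nominal rate of the criterion is about 1 in 20, beside the 10 of 188 genes found. The genes are not independent of each other, and the cause of these wells was not tested.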

How the results depend on the processing

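No paired analysis was possible because the labels give no replicate numbers that tie caffeine wells to vehicle wells. The wells of 1 rat limit the tests within a batch, with 2 rats in all, and low levels limit single genes, such as Adora1. RLE size factors, no filter on low counts, single probes, caffeine and vehicle wells alone, vehicle wells of the same plate and DESeq2 gave 2012 to 2193 genes higher and 1964 to 2291 lower in both rats. Requiring an absolute L2FC of at least 1 in each batch by itself, rather than in the fit of both, left 788 higher and 1060 lower, 2511 in batch 1, 2602 in batch 2, 1750 for 10000 against 400 µM, 480 by ST assay and 1220 against the other chemicals. Leaving out each well in turn gave 1983 to 2209 higher, 1962 to 2076 lower, 4757 to 4927 in batch 1, 5749 to 6168 in batch 2, 3728 to 3855 against 400 µM, 827 to 885 by ST assay and 3859 to 4024 against the other chemicals. Against the 7 chemicals on the caffeine plates alone 4367 genes were called. The interaction of batch and treatment gave 578 to 953 genes with each well left out, 578 without caffeine well 1 of batch 2. Both were chosen after seeing the data.

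DESeq2 changed no call or direction in the fit of both batches among the 188 genes followed. It changed the counts of 8 lists by at most 1 gene: fewer were higher among ER chaperones, clock genes and insulin and FoxO targets, and more were lower in cell cycle, cholesterol, stress response, interferon and lysosome lists. Without caffeine well 1 of batch 2, an alternative chosen after seeing the data, the counts of 12 of 33 lists changed by at most 1 gene. Directions turned for Cd68 (0.06 as reported, -0.18 in batch 1 alone, -0.22 without caffeine well 1 of batch 2, -0.0049 without vehicle well 2 of batch 2, up to 0.24 without other wells), Cxcl10 (-2.92 in batch 1 alone, -2.20 without the caffeine well, up to 0.70 without another), Irf7 (-0.95 and -0.91, up to 1.59), Isg15 (-1.75 and -0.65, up to 2.92), Cyp1a1 (-0.36 in batch 2 alone) and Trib3 (-0.0012 in batch 2 alone, -0.054 without caffeine well 2 of batch 1 and up to 0.092 without another). The cause was not tested.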

Other observations

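Genes outside the lists, chosen after their values were seen, moved in the same wells. They were picked for their low values, and 20.5% of all genes tested fell. Tyrobp, an adaptor of myeloid receptors, had 2 reads over the caffeine wells of batch 1, which was 26.1-fold lower than vehicle (95% exact counting interval 6.96 to 219), and 0 in batch 2, at least 21.6-fold lower. Aif1, a calcium binding protein of macrophages, had 2 and 0 reads and was 27.9-fold lower in batch 1 (7.46 to 234) and at least 25.4-fold lower in batch 2. The complement gene C1qc had an L2FC of -3.74, the invariant chain Cd74 -2.91, the oxidase subunit Cybb -3.25, Cd5l -2.98, lysozyme Lyz2 -3.43 and the protease Ctss -4.23. All were called in both rats, while Cd14, also a gene of hepatocytes, rose. Whether fewer macrophages or less RNA per macrophage gave these values cannot be told apart.

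The next genes were picked in the same way. Tpm1, tropomyosin, had an L2FC of -5.31, Tagln, transgelin, -3.30, Actn1, alpha-actinin, -2.71, Flna, filamin A, -2.62, and the actin genes Acta1 and Actg1 -3.12 and -1.13. Ankrd1 and Cyr61, which growth and stretch of cells induce, were at -5.63 and -2.94. The keratin genes of hepatocytes, Krt8 and Krt18, had L2FCs of -2.82 and -2.45, and Vim, vimentin, -2.52. Spry4 and Etv4, which growth factor signalling induces through ERK, were at -2.02 and -3.01.

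Among other rises were Etnppl (6.55), a phospholyase of phosphoethanolamine, Upp2 (5.69), a uridine phosphorylase, and Fst (5.61), the activin binding protein follistatin. The mitochondrial carrier Slc25a25 rose by 4.86, the coactivator Ppargc1b by 2.91, and the FoxO genes Foxo3 and Foxo1 by 1.37 and 0.84. The bile acid transporter Slc10a2 and the fatty acid binding protein Fabp2 fell, with L2FCs of -5.87 (-6.58 without caffeine well 1 of batch 2) and -5.47. All genes of this paragraph were called in both rats.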
